A study of Homo sapiens with 6 samples.

Results

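Metallothioneins are short, cysteine-rich proteins that bind zinc, copper and cadmium. Their genes are switched on by the metal-responsive transcription factor encoded by *MTF1*, which binds metal response elements when free zinc rises. *SLC30A1* encodes ZnT1, the transporter that moves zinc out through the plasma membrane, and is another known target of this factor. In liver, metallothioneins are known as a store of zinc and as genes that also respond to glucocorticoids and to the acute-phase response. Of 8 genes looked for by symbol (*MT1E*, *MT1F*, *MT1G*, *MT1M*, *MT1X*, *MT2A*, *MTF1* and *SLC30A1*), 7 had a row among the 33900 genes of the deposited table, and *MT1G* was not analysed here.

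The data came from LX-2, a human cell line derived from hepatic stellate cells, which make collagen in the liver once activated. RNA sequencing compared 3 samples given recombinant human Sema3C (rhSema3C), a secreted semaphorin, at 300 ng/ml for 48 h with 3 samples given PBS for the same time. Both groups were labelled wild type and were grown in DMEM with serum, and the labels call the replicates biological without saying whether they were separate cultures, so that the p-values measure the spread between these samples. The comparison asked what rhSema3C changes in gene expression of stellate cells. Total counts on genes lay between 68267808 and 89245585 per sample. Of 11 stellate cell markers, 7 had a mean FPKM (reads scaled to transcript length and library size) of at least 0.5, among them *COL1A1* and *PDGFRB*, while *LRAT*, *DES* and *COL1A2* were at 0.00, 0.03 and 0.11. Of the markers of other liver cells, *ALB* of hepatocytes, *CDH5* of endothelial cells and *EPCAM* of cholangiocytes were at 0.01 each and *PTPRC* of leukocytes at 0.00. Other genes of the same lists were higher, with *CD68* at 80.2, *CD14* at 3.79, *SOX9* at 7.69, *KRT7* at 3.08, *SERPINA1* at 3.32 and *KDR* at 0.72. In bulk samples, fewer cells of a type and less RNA per cell cannot be told apart.

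The 5 metallothionein genes lie in one cluster on the plus strand of chromosome 16 in GRCh38, with *MT2A* (ENSG00000125148) at chr16:56608584-56609497, *MT1E* (ENSG00000169715) at chr16:56625475-56627112, *MT1M* (ENSG00000205364) at chr16:56632659-56633981, *MT1F* (ENSG00000198417) at chr16:56657731-56660698 and *MT1X* (ENSG00000187193) at chr16:56682470-56684196. *MTF1* (ENSG00000188786) at chr1:37809574-37859592 and *SLC30A1* (ENSG00000170385) at chr1:211571568-211579161 lie on the minus strand. None of the 7 genes overlapped another row of the table. The coding sequences of the 5 metallothioneins are shown because they are alike enough that the counting could divide reads between these paralogs. Each was spliced from 3 exons of the principal transcript in GENCODE release 29 and is 186 bases long, and 20 of its 61 codons before the stop (32.8%) encode cysteine. Capitals mark bases that differ from *MT2A*.
MT2A: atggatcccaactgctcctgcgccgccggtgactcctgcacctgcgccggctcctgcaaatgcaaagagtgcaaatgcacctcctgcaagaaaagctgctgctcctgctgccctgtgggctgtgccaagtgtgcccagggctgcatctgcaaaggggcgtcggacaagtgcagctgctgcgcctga
MT1E: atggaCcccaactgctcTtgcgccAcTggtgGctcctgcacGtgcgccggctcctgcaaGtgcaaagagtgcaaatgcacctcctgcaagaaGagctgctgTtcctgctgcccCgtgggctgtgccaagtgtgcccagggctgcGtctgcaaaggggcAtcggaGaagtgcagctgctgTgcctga
MT1F: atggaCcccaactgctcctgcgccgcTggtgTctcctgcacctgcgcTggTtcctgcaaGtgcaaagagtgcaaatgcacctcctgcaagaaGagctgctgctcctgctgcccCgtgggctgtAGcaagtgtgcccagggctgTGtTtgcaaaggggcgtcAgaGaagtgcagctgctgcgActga
MT1M: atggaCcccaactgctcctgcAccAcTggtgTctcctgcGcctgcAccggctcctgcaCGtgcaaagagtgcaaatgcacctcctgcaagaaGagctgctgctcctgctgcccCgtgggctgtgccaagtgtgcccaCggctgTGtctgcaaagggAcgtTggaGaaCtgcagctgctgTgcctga
MT1X: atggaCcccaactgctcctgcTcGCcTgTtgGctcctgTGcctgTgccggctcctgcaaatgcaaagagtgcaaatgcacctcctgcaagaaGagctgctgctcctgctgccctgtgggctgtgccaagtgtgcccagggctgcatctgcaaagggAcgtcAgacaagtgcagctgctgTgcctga

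The coding sequences differed from that of *MT2A* at 14 bases for *MT1E* and for *MT1X*, at 16 for *MT1F* and at 19 for *MT1M*. Over the 10 pairs of these genes, identity of the coding sequence ran from 88.7% (*MT1F* and *MT1X*) to 92.5%. The longest exact stretch shared by 2 of the 5 principal transcripts was 64 bases, between *MT1F* and *MT1M*, and the shortest of these maxima was 32 bases, between *MT2A* and each of *MT1E*, *MT1F* and *MT1M*. *MT2A* and *MT1X* shared 63 bases.

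Each principal transcript was then cut into all windows of 50, 100 and 150 bases, and each window was looked up, on both strands, in every GENCODE transcript of other genes that do not overlap it. At 50 bases, the share of windows also found in another gene was 4.9% for *MT2A*, 5.3% for *MT1E*, 3.6% for *MT1F*, 7.1% for *MT1M* and 16% for *MT1X*. At 100 and at 150 bases it was 0.0% for each of the 5 metallothioneins. For *MT2A*, the pseudogene *MT2P1* shared 20 windows of 50 bases and *MT1G* 16. For *MT1X*, *MT1G* shared the most, 47, and the pseudogene *MT1XP1* 38. *MT1G* was not analysed here, and where its reads were counted is not known. *MT1X* had the largest shared part of the 7 members. Counted separately, 29.2% of its 50-base windows lay in a GENCODE gene without a symbol of its own at the same locus. That gene has no row in the table, and these windows may include some of the 16%. *MTF1* shared 0.9% of its 50-base windows and *SLC30A1* 0.0%. These are exact matches, while aligners also accept mismatches, and the read length is not given in the sources used here.

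**Figure D1:**
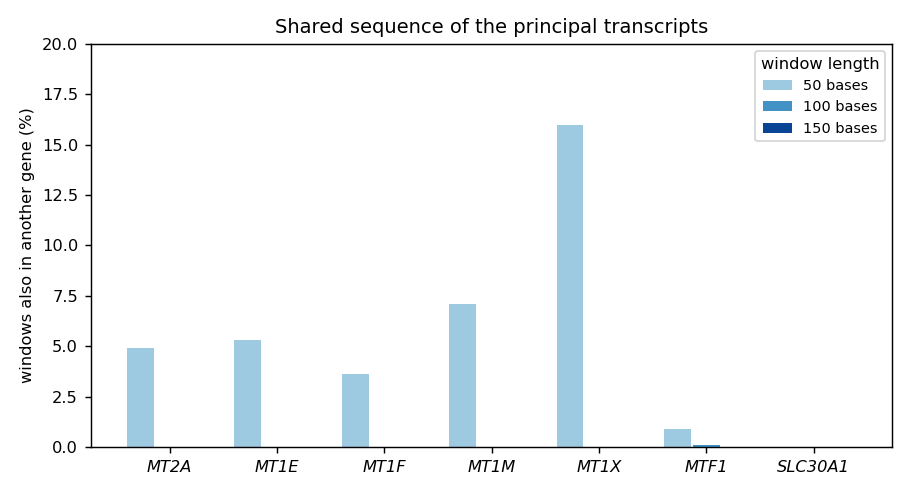
Share of windows of the principal transcript (vertical axis, percent) that also occur in a transcript of another gene elsewhere in the genome, for window lengths of 50, 100 and 150 bases (bars, from light to dark). The 5 metallothioneins have shares of 3.6% to 16% at 50 bases and no bar at the longer windows.

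*MT2A* was the most abundant member by far. On the FPKM scale, which divides by transcript length, its level was 772, 780 and 893 in the PBS samples and 513, 550 and 536 in the rhSema3C samples, and its mean over all samples ranked 29 among the 14178 genes tested (those with a mean FPKM of at least 0.5). *MT1E* followed at 71.1 ± 4.19 FPKM in PBS and 49.6 ± 3.36 with rhSema3C (SD, n = 3 per group, here and for the next levels). *MT1M* stood at 9.17 ± 1.44 and 5.60 ± 0.216 FPKM, and *MT1F* at 6.92 ± 0.640 and 5.04 ± 0.203. The FPKM of *MT1M* lay above that of *MT1F* in every sample of each group, but this order rests on the length used. With the total count on genes as library size, the authors' counts and FPKM imply about 525 bases for *MT1M* and 1899 for *MT1F*. The principal transcripts have 829 and 690. Per kilobase of the principal transcript, *MT1F* was the higher, at 19.8 ± 1.78 CPM against 6.04 ± 0.930 in PBS.

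The remaining levels were low and close together. In PBS, *SLC30A1* had 3.01 ± 0.156 FPKM, *MTF1* 2.77 ± 0.0925 and *MT1X* 2.25 ± 0.367 (SD, n = 3). *MTF1* and *SLC30A1* met at 2.83 FPKM in their highest and lowest PBS samples. With rhSema3C, *MTF1* stood above *SLC30A1* in all samples, at 3.35 to 3.85 against 2.76 to 3.12, and *SLC30A1* overlapped *MT1X* (2.38 to 3.00). The implied length was 935 bases for *MT2A* but 1779 for *MT1X*, whose principal transcript has 450 bases and whose longest, which retains an intron, has 1727. Both implied lengths slightly exceed the whole gene spans of 914 and 1727 bases. They are therefore approximate, and the library size behind the authors' FPKM is not known. Per kilobase of the principal transcript, *MT1X* had 9.26 ± 1.53 CPM in PBS and stood above *MT1M*, *SLC30A1* and *MTF1*, so its place in the order also depends on the length. *MT2A* and *MT1E* were the 2 highest on both scales.

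With rhSema3C, 4 of the 5 metallothioneins fell and *MT1X* did not pass the test, while *MTF1* rose slightly and *SLC30A1* did not pass. The test was edgeR's quasi-likelihood test on the deposited counts with TMM scaling, called at a Benjamini-Hochberg adjusted p below 0.05 over the 14178 genes. So 5 of 7 members were called, where 62.3% of all genes tested were, and that share is near the background. In the downward direction the background was 30.6%, in the upward direction 31.7%. No member passed a fold change above 2 with an unadjusted p below 0.05, which 5.54% of the genes tested did. The median log2 fold change was -0.62 over the 5 metallothioneins and 0.02 over all genes tested.

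*MT2A* carried most of the metallothionein reads. In CPM, which are counts scaled to the normalised library size, it had 751, 765 and 867 in PBS and 467, 499 and 485 with rhSema3C. All 3 rhSema3C samples lay well below the lowest PBS sample. The PBS mean was 794 ± 63.1 CPM and the rhSema3C mean 484 ± 16.2 CPM (SD, n = 3 each). In edgeR the fall came to -0.72 ± 0.06 on the log2 scale (fold change and its standard error) at an adjusted p of 1.0e-06, and left 0.609 of the PBS level. Of all genes tested, 6.38% had a log2 fold change as low or lower. Summed marker levels moved beside it. The 11 stellate cell markers had 7665 to 7920 CPM in PBS and 5631 to 5997 with rhSema3C, and the 7 macrophage markers, nearly all of it *CD68*, had 219 to 240 and 144 to 157. The 4 cholangiocyte markers in the table had 51.9 to 60.6 and 33.6 to 36.2, the 6 endothelial markers 6.09 to 7.80 and 10.5 to 14.1, and the 6 hepatocyte markers 14.2 to 17.0 and 17.2 to 21.1. Genes within a list moved differently. Of the stellate markers with a mean FPKM of at least 0.5, only *PDGFRB* was not lower. Its mean CPM in PBS and with rhSema3C was 35.8 and 38.2. Mean CPM was 5714 and 4289 for *VIM*, most of the stellate sum, and 922 and 537 for *COL1A1*. For *ACTA2* it was 45.4 and 30.8, for *TIMP1* 354 and 264, for *COL3A1* 163 and 127 and for *SPARC* 563 and 465. Mean CPM was 41.7 and 21.3 for *SOX9* but 12.6 and 12.8 for *KRT7*. *VWF*, under the FPKM filter, had 1.12 and 6.83, while *KDR* had 4.89 and 4.55. *SERPINA1*, nearly all of the hepatocyte sum, had 14.6 and 18.9. Of these lists, 2 macrophage, 2 cholangiocyte, 1 endothelial and 1 hepatocyte marker reached a mean FPKM of 0.5. Mitochondrial genes took 4.75% to 5.42% of the counts in PBS and 3.73% to 3.93% with rhSema3C. The part of these in the fall of the metallothioneins was not tested.

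*MT1E* had 81.5, 74.9 and 82.9 CPM in PBS and 47.9, 54.1 and 53.4 with rhSema3C. The groups again did not overlap, and edgeR gave a log2 fold change of -0.62 ± 0.06 (standard error, here and for the next genes) at an adjusted p of 5.5e-06. *MT1F* had 15.1, 12.9 and 13.0 CPM in PBS and 9.48, 8.86 and 9.52 with rhSema3C, or -0.56 ± 0.10 on the log2 scale at an adjusted p of 6.0e-04 in edgeR. Its PBS samples were spread more widely than its rhSema3C samples, since PBS replicate 1 stood highest. *MT1M*, the least abundant of the metallothioneins that fell on the count scale, had 4.44, 4.69 and 5.88 CPM in PBS and 2.74, 2.93 and 2.88 with rhSema3C. It changed by -0.81 ± 0.16 on the log2 scale at an adjusted p of 0.0012 in edgeR, and between 236 and 387 reads per sample stood behind these values. In the 4 genes that fell, every rhSema3C sample was below every PBS sample, an order that 33.3% of the genes tested shared. With *MTF1*, 5 of 7 members had groups that did not overlap, against 67.8% of the genes tested. A two-sided exact permutation test of 3 samples against 3 cannot go below p = 0.1, and it gave p = 0.1 for each of the 4.

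The values of *MT1X* showed no such fall. It had 4.49, 4.64 and 3.38 CPM in PBS and 4.50, 5.16 and 4.09 with rhSema3C, so that the groups overlapped. PBS replicate 3 was the lowest of the 6 samples, with 222 reads, and it was the highest PBS sample for *MT2A* and *MT1M*. The log2 fold change was 0.14 with a 95% interval from -0.24 to 0.51 (adjusted p = 0.50 from edgeR). Without PBS replicate 3 it was 0.01. Intervals of the 4 genes that fell ended at -0.59 for *MT2A*, -0.49 for *MT1E*, -0.33 for *MT1F* and -0.45 for *MT1M*, below the lower end for *MT1X*. On values rescaled to TPM, which makes the length-scaled levels of each sample sum to the same total, *MT1X* passed the test as a rise (log2 fold change 0.34, adjusted p = 0.042 from limma).

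**Figure D2:**
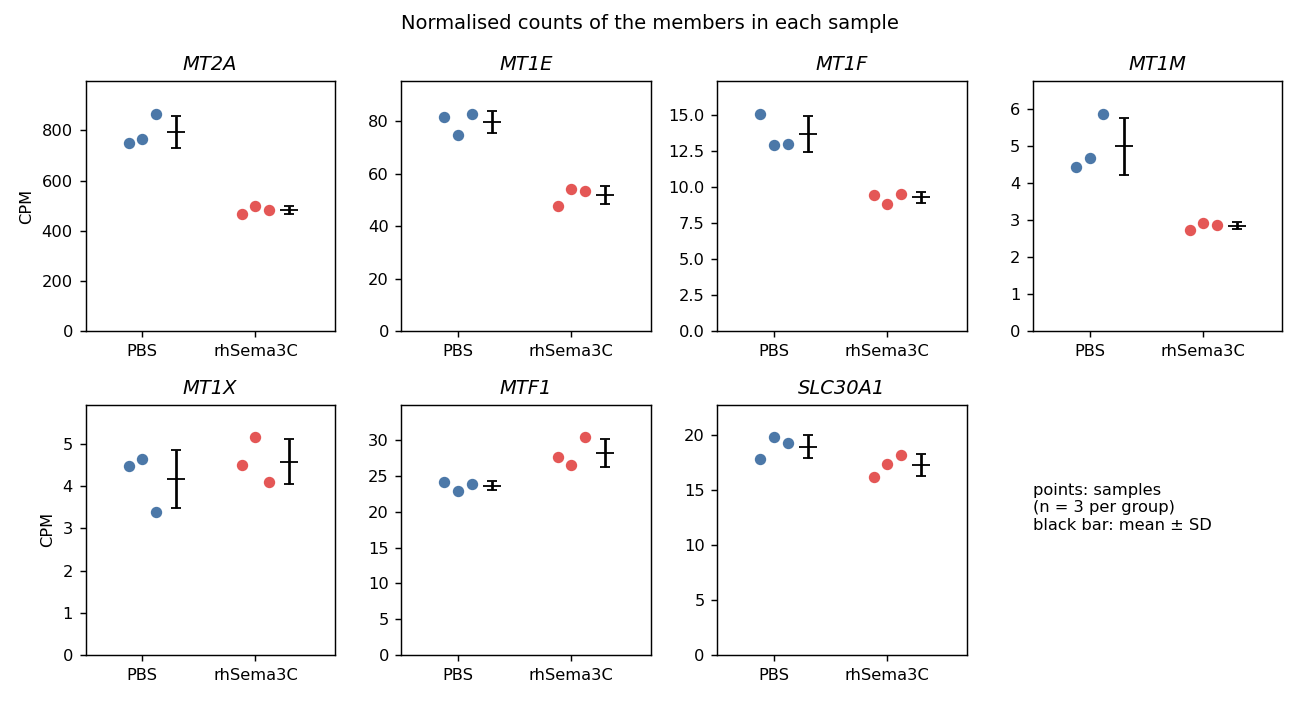
Normalised counts (CPM, vertical axes from 0) of the 7 genes in each of the 3 PBS samples (blue) and 3 rhSema3C samples (red), with the mean and SD of each group in black. *MT2A*, *MT1E*, *MT1F* and *MT1M* lie lower in all rhSema3C samples, *MTF1* lies higher, and *MT1X* and *SLC30A1* overlap.

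*MTF1*, the zinc-sensing activator of these genes, had 24.1, 22.9 and 23.9 CPM in PBS and 27.7, 26.6 and 30.4 with rhSema3C. Every rhSema3C sample was higher, as in 34.6% of the genes tested, by a small margin. In edgeR the rise came to 0.26 ± 0.07 on the log2 scale at an adjusted p of 0.010, or 1.20-fold. Without rhSema3C replicate 3, its highest sample, the log2 fold change was 0.20 and the adjusted p 0.071 in edgeR, so the call rested on that sample. *SLC30A1* had 17.8, 19.8 and 19.3 CPM in PBS and 16.2, 17.4 and 18.2 with rhSema3C. The groups overlapped, and the log2 fold change was -0.13 with a 95% interval from -0.32 to 0.06 (adjusted p = 0.20 from edgeR). With TPM scaling its sign turned, to 0.09. A fall as large as that of *MT2A* lay outside the interval.

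Because paralogs may exchange reads, the 5 metallothioneins were also summed. The sum was 857, 862 and 972 CPM in PBS and 532, 571 and 555 with rhSema3C, and the groups stood apart. The means were 897 ± 65.0 and 553 ± 19.6 CPM (SD, n = 3 per group), a log2 ratio of -0.70. With every one of the 12 metallothionein gene and pseudogene rows of the table in the sum, the log2 ratio was also -0.70. Rows outside the 5 members held 0.285 ± 0.0442% of this wider sum in PBS and 0.294 ± 0.0484% with rhSema3C. Of all reads on genes, the 5 members took 0.086 ± 0.00664% in PBS and 0.057 ± 0.00214% with rhSema3C.

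Within the sum, *MT2A* gave 88.5 ± 0.764% of the summed counts in PBS and 87.6 ± 0.208% with rhSema3C (SD, n = 3 per group). The shares of *MT1E* were 8.91 ± 0.531% and 9.37 ± 0.321%, those of *MT1F* 1.53 ± 0.212% and 1.68 ± 0.119%, and those of *MT1M* 0.556 ± 0.0447% and 0.516 ± 0.00265%. For *MT1E*, *MT1F* and *MT1M* the groups overlapped. *MT1X* gave 0.524%, 0.538% and 0.347% in the PBS samples and 0.847%, 0.905% and 0.738% in the rhSema3C samples, with no overlap. Since *MT2A*, most of the sum, fell, a gene that did not fall gains share. Relative to *MT2A* alone, 80.8% of the other genes tested with a count in every sample were higher without overlap. The CPM of *MT1X* itself overlapped, at 4.17 ± 0.689 in PBS and 4.59 ± 0.539 with rhSema3C.

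A ratio of 2 genes within one sample does not depend on the scaling between samples. Relative to the count of *MT2A*, the log2 ratio of *MT1X* was -7.59 ± 0.36 in PBS and -6.73 ± 0.15 with rhSema3C (SD, n = 3 per group), a difference of 0.86. For *MTF1* it moved from -5.07 ± 0.11 to -4.10 ± 0.12, a difference of 0.97. The ratio of *SLC30A1* moved from -5.39 ± 0.11 to -4.81 ± 0.06, a difference of 0.58. In these 3 ratios the groups did not overlap (two-sided exact permutation test, p = 0.1 each, 0.2 after adjustment over the 6 ratios tested). Since *MT2A* itself fell, 80.8% of the 14116 other genes tested with a count in every sample also had a higher ratio without overlap, and the median difference over them was 0.74. The 3 differences therefore say no more than that these genes did not fall as *MT2A* did. The ratios of *MT1E*, *MT1F* and *MT1M* to *MT2A* differed between the groups by 0.09, 0.16 and -0.09, with overlap. All 6 ratios share *MT2A* as the denominator, so they are not independent of each other.

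**Figure D3:**
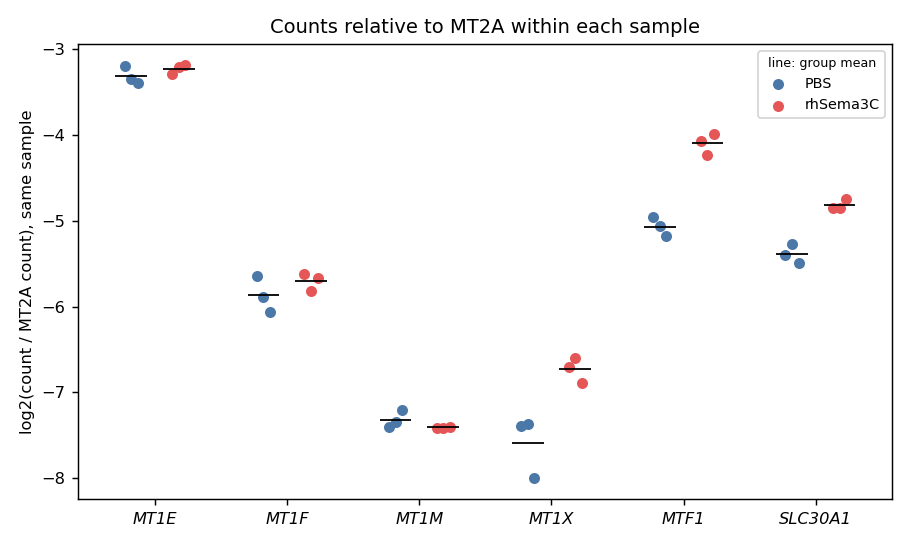
Log2 of each gene's count divided by the *MT2A* count of the same sample (vertical axis), for 3 PBS samples (blue) and 3 rhSema3C samples (red), with the group mean as a line. The ratios of *MT1X*, *MTF1* and *SLC30A1* lie higher with rhSema3C, by 0.86, 0.97 and 0.58, while those of the other 3 metallothioneins overlap.

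The scaling between samples set the size of the falls but not their direction. With library size alone in place of TMM factors the median log2 fold change of all genes tested moved from 0.02 to 0.13, and on values rescaled to TPM to 0.23. Under these 2 scalings *MT2A* had log2 fold changes of -0.61 and -0.49, *MT1E* -0.52 and -0.39, *MT1F* -0.45 and -0.31, and *MT1M* -0.70 and -0.55. All 4 remained past the adjusted p of 0.05 in each of the 15 alternatives fitted.

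**Figure D4:**
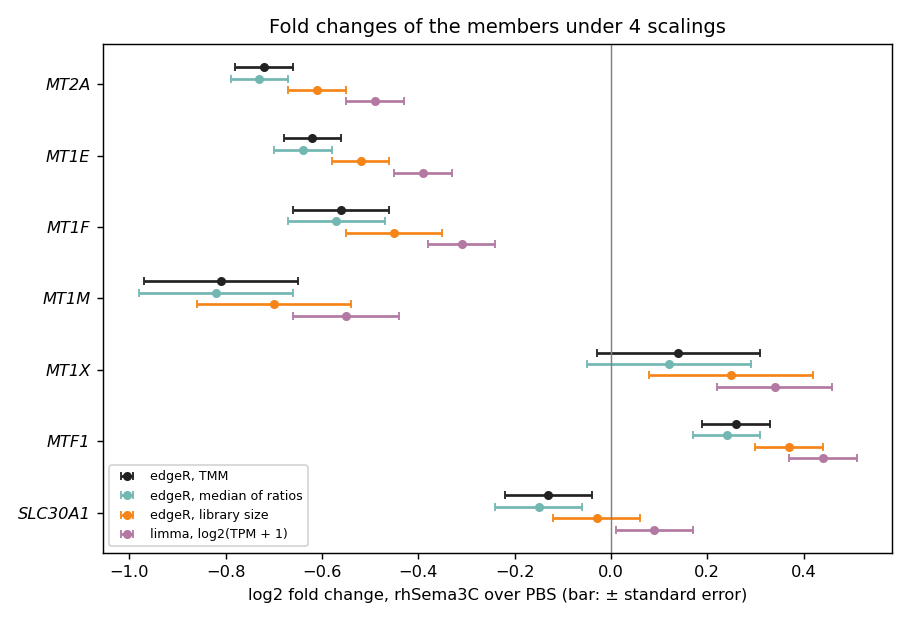
Log2 fold change of rhSema3C over PBS (horizontal axis, bars are ± standard error) for the 7 genes under 4 scalings, named in the legend. *MT2A*, *MT1E*, *MT1F* and *MT1M* stay below 0 under each of them, *MT1X* and *MTF1* stay above 0, and *SLC30A1* crosses 0 with TPM.

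Promoter windows are shown for members that are known targets of the zinc-sensing factor. RefSeq windows in GRCh38.p14, from 250 bases before to 50 after the start, were matched for 4 of the 7 members. Capitals mark the core of the metal response element, searched as TGCACNC and TGCGCNC on both strands. No 2 of the matches shown overlap.
MT2A, chr16:56608334-56608633, plus strand: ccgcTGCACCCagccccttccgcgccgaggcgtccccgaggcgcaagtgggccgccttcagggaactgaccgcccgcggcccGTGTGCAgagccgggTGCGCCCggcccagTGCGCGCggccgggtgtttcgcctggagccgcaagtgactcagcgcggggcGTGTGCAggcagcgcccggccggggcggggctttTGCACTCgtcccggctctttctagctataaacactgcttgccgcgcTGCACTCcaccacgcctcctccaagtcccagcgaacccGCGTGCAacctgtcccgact
MT1X, chr16:56682220-56682519, plus strand: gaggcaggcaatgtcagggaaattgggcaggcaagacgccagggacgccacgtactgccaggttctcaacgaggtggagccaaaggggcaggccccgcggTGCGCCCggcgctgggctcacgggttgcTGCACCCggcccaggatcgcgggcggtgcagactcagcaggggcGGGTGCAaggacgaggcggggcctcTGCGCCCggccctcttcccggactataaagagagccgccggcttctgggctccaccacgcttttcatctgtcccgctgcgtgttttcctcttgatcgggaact
SLC30A1, chr1:211579112-211579411, minus strand: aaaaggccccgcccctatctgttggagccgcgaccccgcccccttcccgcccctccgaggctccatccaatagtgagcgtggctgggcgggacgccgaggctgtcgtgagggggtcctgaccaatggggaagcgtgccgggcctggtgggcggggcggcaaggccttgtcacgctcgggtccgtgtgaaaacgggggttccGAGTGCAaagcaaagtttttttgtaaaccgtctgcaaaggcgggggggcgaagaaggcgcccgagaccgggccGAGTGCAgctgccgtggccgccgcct

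The window of *MT2A* held 8 cores, that of *MT1X* 4 and that of *SLC30A1* 2. At least 1 core was present in 29.6% of all 35116 windows of this length. As many as in *MT2A* were present in 0.0199% of them, as many as in *MT1X* in 0.601%, and as many as in *SLC30A1* in 8.60%. The window of *MTF1* held 0. *MT2A*, which fell, and *MT1X* and *SLC30A1*, which did not pass the test, thus all hold matches, and a match of letters is not a bound site.

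Other metallothionein rows were scarce. Of 15 genes and pseudogenes of the family outside the members, 7 had a row and 2 passed the filter on low values, and both fell. *MT1L* changed by -0.65 ± 0.24 on the log2 scale (adjusted p = 0.035 in edgeR) and *MT2P1* by -0.86 ± 0.32 (adjusted p = 0.038). *MT2P1* shares windows with *MT2A*, its groups overlapped, and neither row passed with library size alone or TPM. *MT1A* had 16 reads or fewer in each sample.

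Among the other zinc exporters, 4 of 6 genes tested rose and none fell, where 62.3% of all genes tested were called and 31.7% rose, and their median log2 fold change was 0.20. The 4 genes were *SLC30A7*, *SLC30A6*, *SLC30A5* and *SLC30A9*, and the groups of *SLC30A9* overlapped. With library size alone 4 were higher and 0 lower, where all genes tested had 39.8% higher and 24.2% lower. With TPM these were 5 and 0, against 48.9% and 17.1%. *SLC30A5*, *SLC30A6* and *SLC30A7* encode transporters that bring zinc into the secretory pathway, and their log2 fold changes were 0.23 (standard error 0.05), 0.25 (0.08) and 0.36 (0.06). The level of *SLC30A7* was 33.8 ± 1.29 CPM in PBS and 43.3 ± 2.02 with rhSema3C (SD, n = 3 each). *SLC30A3* and *SLC30A4* did not pass, at -0.12 and 0.14.

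Of 10 zinc importers tested, 3 rose and 4 fell, with a median of 0.09, and these shares are near those of all genes (31.7% and 30.6%). With library size alone and with TPM, 6 were higher and 4 lower, where all genes had 39.8% higher and 24.2% lower with the first and 48.9% and 17.1% with the second. *SLC39A1*, which brings zinc in through the plasma membrane, had 228 ± 8.78 CPM in PBS and 145 ± 0.624 with rhSema3C (SD, n = 3 each). This was a fall, at -0.65 ± 0.04 on the log2 scale and an adjusted p of 2.3e-07 in edgeR. *SLC39A3* fell by 0.51 and *SLC39A7*, which releases zinc from the endoplasmic reticulum, by 0.40 on the log2 scale. *SLC39A11* and *SLC39A10* rose by 0.61 and 0.60, and *SLC39A6* by 0.40. *SLC39A14*, an importer of zinc and iron known to respond to interleukin-6, had 415 ± 6.29 and 440.0 ± 17.9 CPM and did not pass (adjusted p = 0.11 from edgeR). Every rhSema3C sample was higher, as in 34.6% of the genes tested. Its log2 fold change was 0.08, and 0.19 with library size alone and 0.31 with TPM, where the medians of all genes were 0.13 and 0.23. The 6 genes named as changed kept their sign with library size alone and with TPM.

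Metallothioneins also bind copper. Of 12 copper handling genes, 3 rose and 4 fell, with a median of 0.04, again near the 62.3% called over all genes. With library size alone 6 were higher and 4 lower, where all genes tested had 39.8% higher and 24.2% lower. With TPM these were 6 and 1, against 48.9% and 17.1%. The copper importer *SLC31A1* rose by 0.59 and the copper pumps *ATP7A* and *ATP7B* by 0.44 each on the log2 scale. *ATOX1*, which hands copper to these pumps, fell by 0.44, *CCS*, which loads superoxide dismutase, by 0.34, and *SCO2*, which serves cytochrome oxidase, by 0.79. With TPM the log2 fold changes of these 3 were smaller, at -0.20, -0.10 and -0.47. *SOD1* had 142 ± 4.16 and 148 ± 1.58 CPM and did not pass.

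Heat shock genes, which heavy metals are known to induce, were lower or did not pass. Of 12 tested, 8 fell and none rose, against 30.6% of all genes tested that fell, and the median was -0.20. *BAG3*, *HSPB1* and *HSPA1A* fell most, by 0.66, 0.63 and 0.52 on the log2 scale. *HSPA1A* and *HSPA1B* are near-identical copies, so the split of reads between them is uncertain. With library size alone 1 was higher and 5 lower, where all genes tested had 39.8% higher and 24.2% lower. With TPM these were 3 and 4, against 48.9% and 17.1%, with a median of 0.03. Of 12 NRF2 target genes, which respond to oxidants and metals, 5 rose and 4 fell, with a median of 0.03, where 62.3% of all genes were called. With TPM 8 were higher and 2 lower, where all genes tested had 48.9% higher and 17.1% lower. *SLC7A11*, a cystine transporter, rose by 1.64 on the log2 scale, *GCLC*, which makes glutathione, by 0.39, and *FTH1*, the ferritin heavy chain, by 0.34. *OSGIN1* fell by 0.73, *SRXN1* by 0.49 and *FTL*, the ferritin light chain, by 0.30, with *FTL* at -0.07 under TPM. *HMOX1*, a gene strongly induced by cadmium, had 59.8 ± 3.72 CPM in PBS and 53.4 ± 1.83 with rhSema3C (log2 fold change -0.16, adjusted p = 0.030 from edgeR), and with TPM its sign turned, to 0.07.

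Genes known to respond to glucocorticoids, as metallothioneins do, are given next. Of 12 tested, 9 rose and 2 fell, against 31.7% and 30.6% of all genes tested, and the median log2 fold change was 0.51. *TSC22D3* had 16.3 ± 1.80 CPM in PBS and 67.1 ± 1.4 with rhSema3C (SD, n = 3 each). It rose by 2.04 ± 0.08 on the log2 scale at an adjusted p of 7.1e-09 in edgeR. *KLF9* rose by 1.21 and *PER1* by 1.01, and the receptor gene *NR3C1* by 0.52. *SGK1* and *DUSP1* fell by 0.43 and 0.19, and *DUSP1* was at 0.04 with TPM. Of 10 STAT3 target genes tested, 1 rose (*PIM1*, by 0.30 on the log2 scale) and 3 fell (*TIMP1* by 0.43, *SOCS3* by 0.23 and *JUNB* by 0.13, with *SOCS3* at 0.00 and *JUNB* at 0.10 under TPM). Over all genes, 31.7% rose and 30.6% fell. The split was 4 higher and 1 lower with library size alone, and 5 and 1 with TPM. All genes tested had 39.8% higher and 24.2% lower with the first, and 48.9% and 17.1% with the second. The counts of higher genes are thus near the background with library size alone and with TPM. With TMM scaling, 1 of 10 is below the 31.7% of all genes. The median moved from -0.07 to 0.03 and 0.16.

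**Figure D5:**
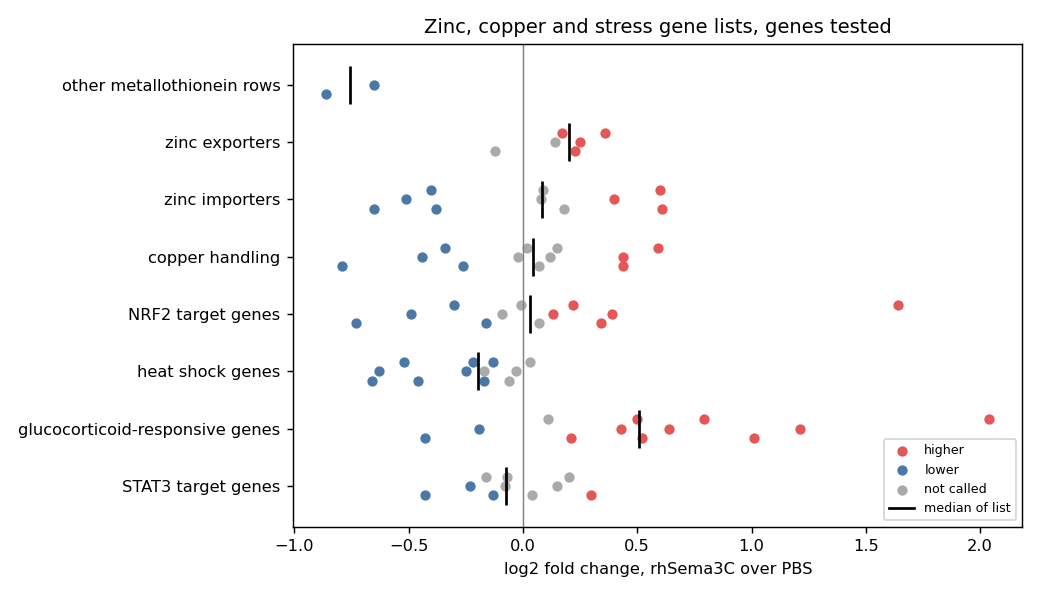
Log2 fold change of rhSema3C over PBS (horizontal axis) for each gene tested in 8 lists (rows), with genes called higher in red, lower in blue and not called in grey, and the median of each list as a black line. Medians run from -0.76 for the 2 other metallothionein rows to 0.51 for the glucocorticoid-responsive genes.

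The genes whose pattern over the 6 samples was closest to that of *MT2A*, among 6970 whose FPKM averaged 5 or more, were *BYSL*, *FAM20C*, *NDUFA11*, *COL12A1* and *MANEAL*. Their root mean square distance to *MT2A* in centred log2 CPM was 0.03 to 0.05, and their log2 fold changes lay between -0.78 and -0.71. Fold changes near that of *MT2A* follow from choosing the genes by this distance. For *SLC30A1* the closest were *COPZ2*, *GTF2IP1*, *GNPTG*, *ZPR1* and *OCEL1*, at distances of 0.02 to 0.03. None of these is a metallothionein or a zinc transporter.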

How the data were processed

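RNA of 6 LX-2 samples, 3 per group, was made into mRNA libraries and sequenced on an Illumina NovaSeq instrument. For every gene the authors deposited a raw count in whole numbers and an FPKM value, scaled to transcript length and library size. Cufflinks and cuffmerge are named in the study's methods. The aligner, counter, strand setting, read length and genome build are not given in the sources used here, and the coordinates lie on GRCh38. Genes with small counts often stand beside an FPKM near 0, so fractional estimates may have been rounded up, which matters least for *MT2A* and most for rows of few reads.

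The counts of the 14178 genes whose FPKM averaged 0.5 or more went into edgeR's quasi-likelihood test with TMM factors, with Benjamini-Hochberg adjustment over all of them. Alternatives were DESeq2, limma on log2(FPKM + 1), log2(FPKM + 0.1) and log2(TPM + 1), other scalings and filters, the replicate number as a block, and fits without each sample. The fits were tested on simulated data. Named genes were the members, per list at most the 3 largest rises and 3 largest falls at an adjusted p below 0.05, and the 5 nearest patterns to *MT2A* and *SLC30A1*. *SLC39A14*, *SOD1*, *HMOX1*, *NR3C1*, *MT1A*, *SLC30A3*, *SLC30A4* and *SLC30A9* were named after their values were seen. The members and lists were chosen with earlier results of these data known. Transcripts came from GENCODE release 29, whose gene ends match the table for 1 of the 7 members, and promoters from RefSeq. Protein sequences were not used here. Replicates differed by more than counting noise (chi-square per degree of freedom 12.6 to 20.4). The software was DESeq2 1.42.0, limma 3.58.1 and edgeR 4.0.16 in R 4.3.3, with matplotlib 3.10.9 for plots.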

Additional observations from a re-analysis of the deposited data

How the results depend on the processing

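*MT2A*, *MT1E*, *MT1F* and *MT1M* stayed lower and past the threshold in all 15 alternatives, with log2 fold changes from -0.75 to -0.49, -0.67 to -0.39, -0.60 to -0.31 and -0.89 to -0.55. With TPM, 2 members were called higher, since *MT1X* passed (0.34), and *SLC30A1* reversed to 0.09. With an FPKM minimum of 5, *MTF1*, *MT1X* and *SLC30A1* were not tested, so 0 members were called higher. With each sample left out in turn, 4 members were called lower and 0 to 1 higher, and the log2 fold change of *MTF1* ranged from 0.20 to 0.30, of *MT1X* from 0.01 to 0.22 and of *SLC30A1* from -0.18 to -0.09. Without rhSema3C replicate 3, *MTF1* had an adjusted p of 0.071.

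Over the whole table, 4490 genes were higher and 4339 lower, so the calls were about evenly split. With TPM these were 6934 and 2428, and under an FPKM minimum of 5, which tests 6971 genes, 2630 and 2602. With each sample left out, 4065 to 4301 were higher and 3991 to 4203 lower. The log2 ratio of the summed metallothioneins was -0.59 with library size alone and -0.48 with TPM. Fitted as 1 feature in edgeR, the 12 rows changed by -0.70 ± 0.05 on the log2 scale, and *MTF1* and *SLC30A1* kept their calls.

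List medians moved with the scaling of all genes. With library size alone and with TPM they were 0.31 and 0.42 for zinc exporters, 0.19 and 0.31 for zinc importers, 0.15 and 0.26 for copper handling, 0.14 and 0.25 for NRF2 target genes, 0.62 and 0.71 for glucocorticoid-responsive genes, -0.09 and 0.03 for heat shock genes, and 0.03 and 0.16 for STAT3 target genes. For the other metallothionein rows the median was -0.47 with TPM. The cause of these shifts was not tested.

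Same-numbered samples did not deviate together (correlations of -0.09, -0.08 and -0.04). These are deviations from group means of 3 samples, so they cannot show whether the samples were handled as pairs. The labels do not say. With the replicate number as a block, 4221 genes were higher and 4120 lower, 4 members lower and 1 higher, and *MT2A* had a log2 fold change of -0.71. *MT1X* and *MT1M* had the fewest reads, 222 to 472 and 236 to 387 per sample, and the widest standard errors of the 7 members, 0.17 and 0.16.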
